A study of Mus musculus with 10 samples.

Results

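Mouse bone marrow cells that lack the cell cycle kinase CDK6 (Cdk6-/-) and had been transformed with BCR-ABL were compared with a pool of wild-type RNA on 5 2-colour microarrays. The 5 were chosen by their titles from the 10 arrays of the series. On 4 of them RNA of 1 Cdk6-/- sample was labelled with Cy5 and the wild-type (Cdk6+/+) pool, made of 4 RNAs, with Cy3. The fifth carried the pooled RNA of the same 4 Cdk6-/- samples with the dyes exchanged, so the number of samples stays 4. The other 5 arrays hold Cdk6-K43M, a kinase-dead form of the protein, in the same layout against the same wild-type pool, and serve here for the dye effect, for the spread and for a comparison of the genotypes. All groups shared the procedure. Marrow came from donor mice aged 6 weeks, was exposed to retroviral supernatant, and after 24 hours was embedded in methylcellulose free of growth factors, from which BCR-ABL+ colonies were taken at 10 days. The labels describe RNA of individual colonies and do not say how many colonies or mice a sample stands for. The series calls its samples biological replicates, and whether each had its own donor mouse is not stated, so p-values measure the spread between these samples, part of which may be technical.

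CDK6 binds D-type cyclins and phosphorylates RB in the G1 phase, which frees E2F factors to switch on genes of DNA synthesis. It also sits on chromatin with transcription factors and acts on transcription, in part without its kinase activity. BCR-ABL is a constitutively active tyrosine kinase fusion that drives chronic myeloid leukaemia and a form of B-cell acute lymphoblastic leukaemia, and in mouse marrow it lets cells form colonies without cytokines. The comparison asks which transcripts differ in such colonies when CDK6 is missing.

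The colonies carried the transcripts of B-lineage progenitors. All 10 B-lineage markers checked (among them Cd79a, Cd79b, Pax5, Ebf1, Igll1, Vpreb1, Il7r, Rag1 and Dntt) were well above background in all 4 Cdk6-/- samples and in the wild-type channel of all 10 arrays. No mast cell or basophil marker of 4 was above background anywhere, and of 5 stromal and endothelial markers only Col1a2 was, in 1 of 4 samples and in the wild-type channel of 5 of 10 arrays. The share of probes well above background ran from 47.9% to 48.8% over the 4 Cdk6-/- samples, and 0 spots were saturated. Precision is limited by the number of arrays. Bulk RNA cannot tell fewer cells of a type from less RNA per cell.

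Cdk6 itself was read by 1 probe. The log2 ratio of Cdk6-/- to wild type was -0.37, -0.40, -0.18 and 0.0024 in replicates 1 to 4 and -0.67 on the swapped array. Replicate 4 was thus level with wild type and the other 3 lay below it. The fitted change of -0.41 (log2, SE 0.12) did not pass the test (adjusted p = 0.0815). Because the sources do not tell whether the probe falls inside the deletion, this level does not check the labels. The change was past the threshold with the scanner software's processed signals (adjusted p = 0.0188), with ordinary least squares (0.0368), with a technical share of 0.6 (0.0412), with the 5 Cdk6-/- arrays alone (adjusted p = 0.0478) and without replicate 4 (adjusted p = 0.0445). None of the 12 nearest genes measured around Cdk6 on chromosome 5 passed. Akap9 had the lowest p among them (0.32, SE 0.08, adjusted p = 0.0535).

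Of 22008 genes tested, 1023 passed at an adjusted p under 0.05 (4.65%). Of these, 483 were higher (2.19% of all genes) and 540 were lower (2.45%) in Cdk6-/-. The gene lists below hold genes with a symbol, and of those 780 of 12997 passed (6.0%). Shares over all genes are thus a low yardstick for the lists. Most changes were small, with a median fold of 1.38 among genes that passed. A change of at least 2-fold was found in 39 higher and 79 lower genes. The ratio had one sign on all 5 arrays in 953 of the 1023 (93.2%). As the test that picked these genes used the same arrays, agreement of sign was favoured and is no further support. The median SE was 0.0819 on the log2 scale and the median SD over the 4 samples was 0.141. The count rested in part on single samples: it was 346 without Cdk6-/- replicate 1, 603 without replicate 2, 832 without replicate 3 and 810 without replicate 4. With slide as a block it was 374. With median centring in place of loess 556 passed, 333 of them higher (59.9% against 47.2%).

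The largest decreases were in the calprotectin genes S100a9 and S100a8, the transferrin gene Trf and the ubiquitin hydrolase gene Uchl1. S100a9, which pairs with S100a8 to form calprotectin, the calcium-binding protein of neutrophils and monocytes, had log2 ratios of -3.94, -4.55, -4.25 and -4.32 in replicates 1 to 4 and -4.04 on the swapped array. All 5 values lay far below wild type, and the fitted fall was 17.9-fold (-4.16 log2, SE 0.13, adjusted p = 1.4e-07). S100a9 was above background in 3 of 4 Cdk6-/- samples, at a level of 6.58 (log2) against 10.73 in wild type. That is close to the 6.52 of Camp, which was above background in 0 of 4 Cdk6-/- samples. The size of the fall and the closeness of the values thus rest on a dim signal. S100a8 was above background in 0 of 4 Cdk6-/- samples but in the wild-type channel of all 10 arrays, which makes it at least 8.45-fold lower (adjusted p = 9.2e-07). Such a bound sets the wild-type mean against the background level of the Cdk6-/- arrays.

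Trf encodes transferrin, the iron carrier of plasma. Its ratios were -3.30, -3.32, -3.47 and -3.24, with -3.46 on the swapped array (fit -3.39, SE 0.13, adjusted p = 5.5e-07), and its other probe gave -3.02. It was the only one of 13 iron handling genes tested that passed. Uchl1, a ubiquitin hydrolase best known from neurons, had ratios of -2.87, -3.02, -2.54 and -3.32 and -2.94 on the swapped array. All of these ratios to the wild-type pool were -2.54 or lower, and the fit was -2.89 (SE 0.20, adjusted p = 6.5e-05). Klf2, a Kruppel-like factor that restrains lymphocyte activation and migration, had ratios of -1.63, -2.07, -1.73 and -1.89 and -1.54 on the swapped array (fit -1.69, SE 0.09, adjusted p = 1e-05). Of 10 Kruppel-like factor genes tested it was the only one past the test. Rbm44, an RNA-binding protein gene of the germ line, fell by 1.65 (log2, SE 0.07, adjusted p = 1.1e-06), with 2 of 4 Cdk6-/- samples above background. Ly6k, of the Ly6 family of surface proteins, was at least 2.74-fold lower (adjusted p = 3.8e-05). These 7 genes passed under every alternative tried. With Agilent's processed signals, which are not offset, the changes of dim genes were larger (S100a9 -5.97, S100a8 -6.29, Rbm44 -3.08, Ly6k -3.35).

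A further 11 of the 30 largest decreases also passed under every alternative tried. Serpine2, an inhibitor of serine proteases, had ratios of -2.49, -1.91, -2.18 and -2.40 and -2.27 on the swapped array (fit -2.24, SE 0.18, adjusted p = 0.00018). Clic6, of the chloride intracellular channel family, fell by 2.36 (SE 0.27), Laptm4b, a lysosomal membrane protein, by 2.11 (SE 0.18), and Cd36, a scavenger and fatty acid receptor, by 1.90 (SE 0.15). Fcrla, a B-cell protein of the Fc receptor-like family, lay at -3.34 in replicate 1 and between -1.91 and -1.45 in the other 3, so its fit of -1.97 (SE 0.30, adjusted p = 0.0073) covers unequal samples. Il6ra, the receptor subunit that binds interleukin 6, fell by 1.71 (SE 0.25), and the metalloproteinase gene Adam19 by 1.64 (SE 0.13). Acot1, an acyl-CoA thioesterase, Erc1, a scaffold of vesicle release and NF-kappaB signalling, Bcar3, an adaptor of integrin and receptor kinase signalling, and Zfp365 fell by 1.68, 1.65, 1.46 and 1.46. For Erc1 this holds for the brightest probe only: its other probes gave -0.20 to 0.15.

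Celsr1, a cadherin of planar cell polarity, Lgr5, the R-spondin receptor known from intestinal stem cells, Smoc1 and Spsb4 fell by 1.43, 1.57, 1.69 and 1.97. Lgr5 ran from -2.48 in replicate 3 to -0.78 in replicate 1. Of these, Celsr1 and Smoc1 were lost with slide as a block (adjusted p = 0.0662 and 0.055), Lgr5 and Spsb4 with processed signals (adjusted p = 0.075 and 0.0547), and Lgr5 with the Cdk6-/- arrays alone (adjusted p = 0.0629).

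The remaining 8 of the 30 largest decreases varied more between samples, and replicate 2 was nearest to wild type in 5 of them. Ly86, the partner of the Toll-like receptor relative CD180, had ratios of -3.44, -1.29, -1.83 and -3.64, with -2.46 on the swapped array (fit -2.50, SE 0.53, adjusted p = 0.0304). Cd5l, a secreted protein of tissue macrophages, had ratios of -2.58, -1.26, -1.39 and -3.54 and -2.06 on the swapped array (fit -2.05, SE 0.49, adjusted p = 0.0449). Trem2, a lipid-sensing receptor of macrophages, lay between -2.85 in replicate 4 and -0.88 in replicate 2 (fit -1.81, SE 0.44, adjusted p = 0.0449). In all 3 genes replicates 1 and 4 were the lowest and replicate 2 the highest. Ctsl, the lysosomal protease cathepsin L, fell by 1.65 (SE 0.31), Plxnb2, a semaphorin receptor, by 1.57 (SE 0.33), Cd63, a tetraspanin of late endosomes, by 1.56 (SE 0.38), Emid1 by 1.83 (SE 0.41) and St3gal5, the synthase of ganglioside GM3, by 1.42 (SE 0.33). The summed level of the 8 monocyte and macrophage markers tested, of 9, ran from 1790 to 4019 intensity units in the 4 Cdk6-/- samples. In the wild-type channel of the same arrays it ran from 5695 to 6198. Its part in these decreases was not tested. All 8 calls were lost without replicate 1 (adjusted p = 0.0548 to 0.108) and with slide as a block (adjusted p = 0.0713 to 0.122). Without replicate 4, 6 of the 8 were lost (adjusted p = 0.0563 to 0.0833, all but Plxnb2 and Ctsl), without replicate 2 St3gal5, Emid1 and Cd5l (0.0503 to 0.0762), and without replicate 3 St3gal5, Cd63 and Trem2 (0.0578 to 0.0662).

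**Figure D1:**
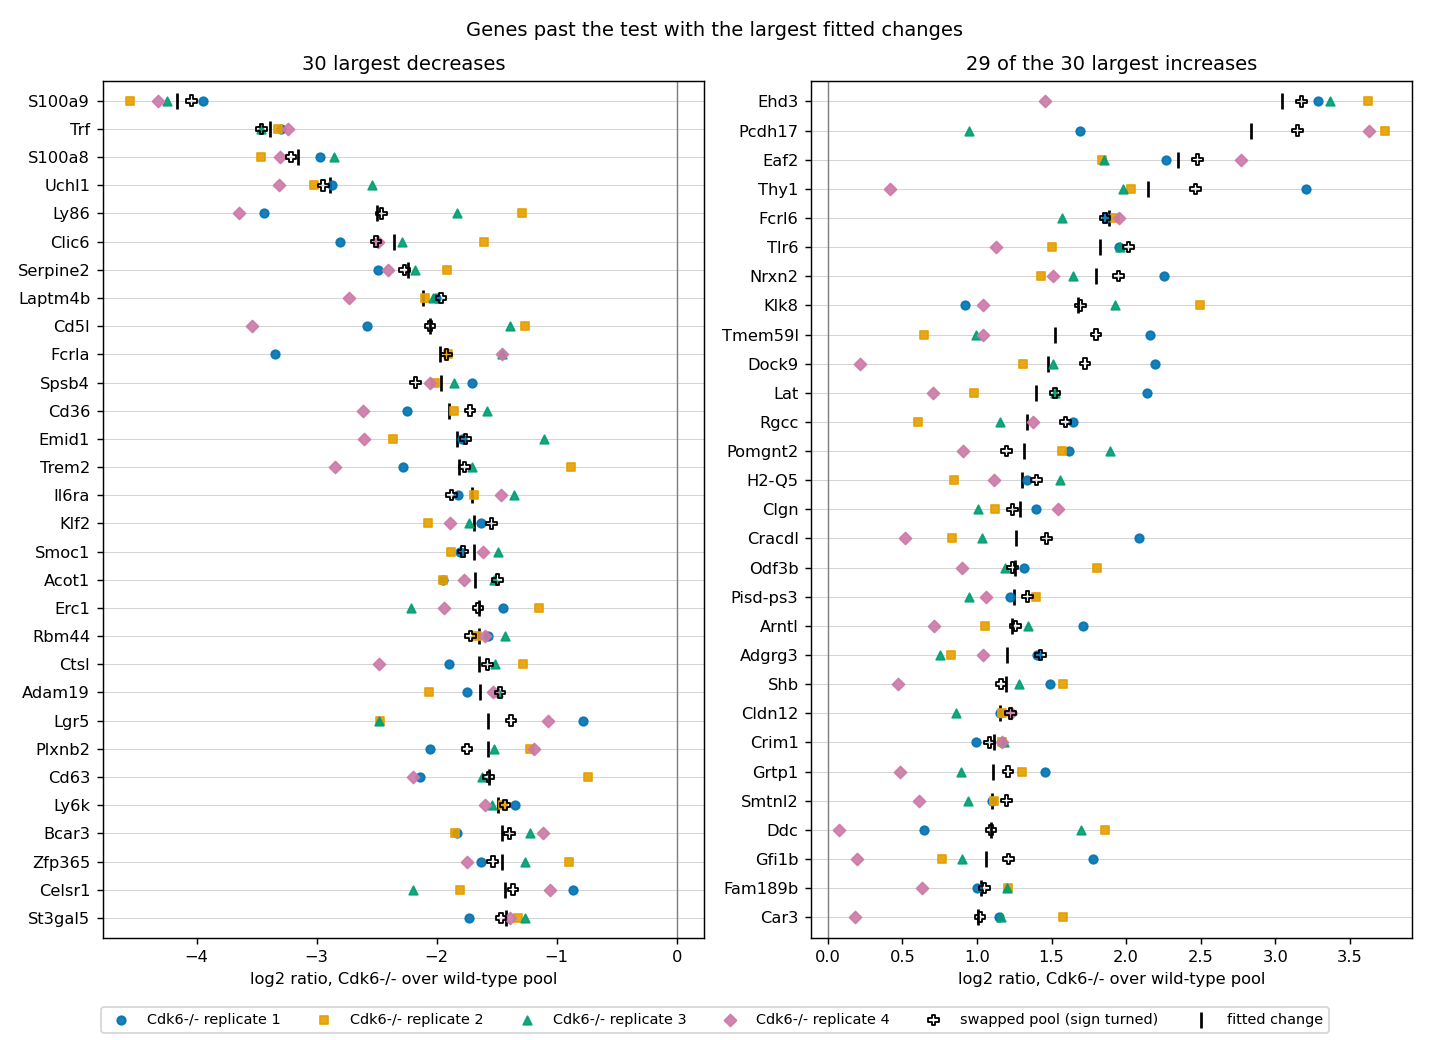
Log2 ratio of Cdk6-/- over the wild-type pool (horizontal axis) for the 30 largest decreases (left) and 29 of the 30 largest increases (right) among genes past the test with one sign on all arrays; coloured points are the 4 samples, open crosses the swapped pool with its sign turned, and ticks the fitted change. Trf (fit -3.39) has tightly grouped points, while Ehd3 and Thy1 have replicate 4 (1.46 and 0.42) apart from the rest. S100a9 (fit -4.16) was dim in Cdk6-/-. S100a8, Ly6k and Tlr6 were below background in 1 group, so their points are not measured folds.

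The largest increases were in Ehd3, Pcdh17, Eaf2 and Thy1, and their samples were less even than those of the largest decreases. Ehd3, an ATPase of endosome recycling, had ratios of 3.29, 3.62, 3.37 and 1.46 and 3.17 on the swapped array. Replicate 4 lay well under the other 3, and the fit was 3.05 (SE 0.28, adjusted p = 0.00037), an 8.26-fold rise. Pcdh17, a protocadherin of neuronal adhesion, had ratios of 1.69, 3.74, 0.95 and 3.63 and 3.15 on the swapped array (fit 2.84, SE 0.53, adjusted p = 0.0188). It split the samples into a higher pair, replicates 2 and 4, and a lower pair. Its wild-type channel was above background on only 2 of 10 arrays. Eaf2, a partner of the ELL elongation factor, had ratios of 2.26, 1.84, 1.85 and 2.77 and 2.48 on the swapped array (fit 2.35, SE 0.23, adjusted p = 0.00056), but its other probe gave -0.54.

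Thy1, the surface glycoprotein of T cells and neurons, had ratios of 3.21, 2.03, 1.98 and 0.42 and 2.46 on the swapped array (fit 2.14, SE 0.41, adjusted p = 0.0202). Replicate 4 was again nearest to wild type. Lat, the adaptor that links the T-cell receptor to phospholipase C, rose by 1.39 (SE 0.22), with 2.14 in replicate 1 and 0.71 in replicate 4. Fcrl6, of the Fc receptor-like family, was more even (1.87, 1.93, 1.57 and 1.95 in the samples and 1.86 on the swapped array, fit 1.88, SE 0.20, adjusted p = 0.001). Tlr6, a Toll-like receptor for diacylated lipopeptides, was above background in all 4 Cdk6-/- samples and in none of 10 wild-type channels, which makes it at least 3.40-fold higher (adjusted p = 0.00053). Nrxn2, a presynaptic adhesion protein, rose by 1.79 (SE 0.15, adjusted p = 0.00018) and its other probe gave 1.64.

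Rgcc, a regulator of the cell cycle, and Pomgnt2, an enzyme of dystroglycan glycosylation, rose by 1.34 and 1.32. The receptor gene Adgrg3 rose by 1.20, the tight junction gene Cldn12 by 1.15 and Crim1 by 1.12. Arntl, the clock factor BMAL1, rose by 1.24 (SE 0.18, adjusted p = 0.0053), yet its other probes gave -0.03 to 0.55. Fam189b rose by 1.03 with an other probe at -0.05. Odf3b rose by 1.25 on the log2 scale and Smtnl2 rose 2.14-fold. Ehd3, Eaf2, Fcrl6, Tlr6, Nrxn2, Lat and these 9 genes passed under every alternative tried.

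The kallikrein gene Klk8, Tmem59l, the guanine nucleotide exchange factor gene Dock9, the endoplasmic reticulum chaperone gene Clgn, Cracdl, the adaptor gene Shb, Gfi1b, which encodes a repressor of erythroid and megakaryocyte development, Grtp1 and the carbonic anhydrase gene Car3 rose by 1.68, 1.52, 1.48, 1.29, 1.26, 1.19, 1.06, 1.11 and 1.01. Ddc, dopa decarboxylase, rose 2.14-fold and ran from 0.07 in replicate 4 to 1.86 in replicate 2. In 16 of the 30 largest increases replicate 4 was the sample nearest to wild type, against 2, 5 and 7 for replicates 1, 2 and 3. Without replicate 1, Thy1 and all of these but Grtp1 were lost (adjusted p = 0.0543 to 0.0954). Klk8, Tmem59l, Cracdl, Ddc, Gfi1b and Car3 were lost without replicate 2 (0.0503 to 0.0808) and without replicate 3 (0.0505 to 0.0768), and Tmem59l also without replicate 4 (0.0636). With slide as a block these 10 genes and Pcdh17 were lost (0.05 to 0.108).

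Of 16 genes of DNA replication licensing, 7 were lower in Cdk6-/- and 9 did not pass. Licensing loads the MCM helicase onto origins through ORC, Cdc6 and Cdt1 in G1, and its genes are classic E2F targets. None rose, 2.45% of all genes were lower, and the median of the list was -0.32 against 0.00 over all genes. The promoters of 3 members that fell are shown because they hold letters of the E2F consensus. The letters searched were TTTCCCGC, TTTGGCGC, TTTCGCGC and TTTGCCGC, on both strands, in windows of 300 bases that span the RefSeq gene start (GRCm38.p6), and capitals mark the match. The Cdc6 window lies at chr11:98907901-98908200 (plus strand), that of Cdt1 at chr8:122567765-122568064 (plus strand) and that of Orc1 at chr4:108579204-108579503 (plus strand).
Cdc6: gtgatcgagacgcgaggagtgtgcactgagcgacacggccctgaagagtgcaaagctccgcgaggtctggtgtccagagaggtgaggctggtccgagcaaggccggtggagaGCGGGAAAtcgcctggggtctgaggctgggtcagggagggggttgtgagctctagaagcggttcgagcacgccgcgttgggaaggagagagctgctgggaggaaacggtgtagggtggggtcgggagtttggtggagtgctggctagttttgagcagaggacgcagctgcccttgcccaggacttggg
Cdt1: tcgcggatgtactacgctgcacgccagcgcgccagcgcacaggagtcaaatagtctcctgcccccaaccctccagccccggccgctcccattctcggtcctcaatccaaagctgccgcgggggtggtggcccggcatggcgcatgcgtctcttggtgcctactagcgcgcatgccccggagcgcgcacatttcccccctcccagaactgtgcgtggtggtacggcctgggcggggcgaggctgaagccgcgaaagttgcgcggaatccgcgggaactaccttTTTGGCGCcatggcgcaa
Orc1: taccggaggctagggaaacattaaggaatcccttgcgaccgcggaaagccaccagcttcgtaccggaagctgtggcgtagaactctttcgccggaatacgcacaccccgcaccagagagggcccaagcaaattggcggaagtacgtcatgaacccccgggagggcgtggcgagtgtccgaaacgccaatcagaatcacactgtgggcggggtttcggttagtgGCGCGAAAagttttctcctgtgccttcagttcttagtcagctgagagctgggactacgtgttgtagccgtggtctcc
Such a match was found in 704 of 27025 genes (2.6%), in 8 of the 14 licensing genes with a promoter entry (57.1%) and in 3 of the 6 of those that fell. A match of letters is a description and not a binding site.

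Cdt1, whose product helps load the helicase, had ratios of -0.99, -0.89, -0.88 and -0.36 and -0.27 on the swapped array (fit -0.54, SE 0.11, adjusted p = 0.0237). The swapped pool and replicate 4 lay nearer to wild type than the other samples. Cdc6, an ATPase of the loading complex, had ratios of -0.67, -0.41, -0.63 and -0.21 and -0.35 on the swapped array (fit -0.42, SE 0.08, adjusted p = 0.018). Orc1, the large subunit of the origin recognition complex, had ratios of -0.97, -0.62, -0.33 and -0.16 and -0.63 on the swapped array (fit -0.56, adjusted p = 0.0439). Orc1 is named to complete the 7 and was chosen after its values were seen. Mcm2, a subunit of the helicase, had 3 nearly equal samples and replicate 4 nearer to wild type (-0.54, -0.53, -0.51 and -0.32, with -0.39 on the swapped array, fit -0.44, SE 0.07, adjusted p = 0.0099). Mcm10, which activates the helicase, fell by 0.40, Gmnn, the inhibitor of Cdt1, by 0.36 and Orc6 by 0.30. Replicate 4 was the highest sample in 13 of the 16 genes, and Mcm6 (-0.35, adjusted p = 0.0594), Mcm3 (-0.31, adjusted p = 0.0622) and Mcm4 (-0.32, adjusted p = 0.0766) missed the threshold. The count was 2 without replicate 1, 3 without replicate 2, 9 without replicate 4, 2 with processed signals or median centring, and 1 with slide as a block. Of the 6 members named by the rule, Mcm2 alone passed under every alternative; Orc6, Gmnn, Mcm10 and Cdt1 were lost without replicate 1 (adjusted p = 0.0615 to 0.107).

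Of 9 nucleotide supply genes 4 fell and 5 did not pass (2.45% of all genes were lower). Rrm2, the regulated subunit of ribonucleotide reductase, had ratios of -1.12, -0.81, -1.04 and -0.84 and -0.35 on the swapped array (fit -0.68, SE 0.10, adjusted p = 0.0053). All single samples lay below the swapped pool, which carries the dye effect with the opposite sign. Rrm1, the large subunit, fell by 0.32 (SE 0.07), Tyms, thymidylate synthase, by 0.37 (SE 0.08) and Dut, dUTPase, by 0.38 (SE 0.09). Only Rrm2 kept its call under every alternative; the other 3 were lost without replicate 1, 2 or 3 (adjusted p = 0.0555 to 0.0922), with median centring (0.176 to 0.192) and with slide as a block (0.0661 to 0.0959), and Tyms also without replicate 4 (0.051). None of the 8 promoters of the list that were available held the E2F letters.

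In the further lists of replication and division at most 1 gene each passed, all as lower, where 2.45% of all genes were lower. Their list medians all lay below 0, from -0.24 (G1 cyclins, CDKs and inhibitors) to -0.10 (kinetochore), against 0.00 over all genes. Of the 20 polymerase, clamp and ligase genes 13 were below wild type on all 5 arrays. Of 15 G1 cyclins, CDKs and inhibitors Cdkn1a alone fell. Of 20 genes of DNA polymerases, clamp and ligase 1 fell (Rpa1, of the single-strand binding protein, -0.34, SE 0.07), and of 10 genes of origin firing 1 fell (Dbf4, the activator of the Cdc7 kinase, -0.56, SE 0.09, adjusted p = 0.0093). Nek2, a kinase of centrosome separation, had ratios of -0.65, -1.03, -0.97 and -0.80 and -0.69 on the swapped array (fit -0.77, SE 0.07, adjusted p = 0.00029). It was the only one of 9 mitotic kinase and checkpoint genes to pass, and Birc5, survivin, the only one of 11 spindle and cytokinesis genes (-0.32, SE 0.08, adjusted p = 0.0436). None of 8 genes of mitotic cyclins and their ubiquitin ligase passed, nor of 7 kinetochore, 6 condensin and topoisomerase or 21 DNA damage and repair genes. Dbf4 and Nek2 passed under every alternative, whereas Rpa1 and Birc5 were lost without replicate 1 (adjusted p = 0.0608 and 0.1) or 2 (0.0518 and 0.08), and Birc5 without replicate 3 (0.0757) or 4 (0.0585).

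Of 13 genes of the RB and E2F family 2 rose and 4 fell (2.19% and 2.45% of all genes), and 7 did not pass. E2f5 and E2f6, which act mainly as repressors, rose by 0.43 (SE 0.07, adjusted p = 0.0101) and 0.45 (SE 0.09, adjusted p = 0.0201). E2f1, the activator, fell by 0.39 (SE 0.09), the atypical repressors E2f7 and E2f8 by 0.46 (SE 0.09) and 0.75 (SE 0.19), and Rb1 itself by 0.35 (SE 0.08). E2f8 was uneven, at -1.22 and -1.45 in replicates 1 and 4 and -0.31 in each of the other 2. The other probe of E2f7 gave 0.06. E2f2, E2f3, E2f4, Rbl1 and Rbl2 were among those that did not pass. E2f5 alone passed under every alternative. E2f6, Rb1, E2f1, E2f7 and E2f8 were lost without replicate 1 (adjusted p = 0.052 to 0.121), Rb1, E2f7 and E2f8 without replicate 2 (0.0506 to 0.0702), E2f1 without replicate 3 (0.0588), and Rb1 and E2f8 without replicate 4 (0.0539 and 0.0762).

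Some targets of p53 fell in each of their 3 roles, where 2.45% of all genes were lower. Of the arrest and feedback targets 5 of 13 fell (median -0.33), of the cell death targets 7 of 12 (median -0.43) and of the DNA repair and metabolism targets 3 of 10 (median -0.25). No member of the 3 lists rose. Cdkn1a, the CDK inhibitor p21, was very even, with ratios of -0.88, -0.76, -0.83 and -0.85 and -0.75 on the swapped array (fit -0.80, SE 0.14, adjusted p = 0.0137), and its other probe gave -1.08. Phlda3, an inhibitor of AKT, had ratios of -1.61, -0.80, -1.01 and -0.58 and -0.92 on the swapped array (fit -0.96, SE 0.15, adjusted p = 0.0094). Ccng1, cyclin G1, fell by 0.53, the phosphatase gene Ppm1d by 0.39 and the antiproliferative gene Btg2 by 0.70. Mdm2, the ligase that degrades p53, missed the threshold (-0.22, adjusted p = 0.0527), as did Gtse1 (-0.33, adjusted p = 0.0506).

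Among the death targets, Pmaip1, the BH3-only protein NOXA, had ratios of -1.98, -1.02, -1.63 and -1.25 and -1.44 on the swapped array (fit -1.42, SE 0.30, adjusted p = 0.0292). All samples lay at or below -1.02. Bbc3, the BH3-only protein PUMA, fell by 0.63 (SE 0.13), and Bax, the pore-forming effector, by 0.48 (SE 0.09). Pidd1 fell by 0.49, Aen by 0.41 and Ei24 by 0.36, but the other probe of Pidd1 gave 0.03. Eda2r, a receptor of the TNF family, was in no Cdk6-/- sample above background, which makes it at least 1.44-fold lower (adjusted p = 0.0048). Bmf, a BH3-only gene of the BCL2 family list, fell by 0.95 (SE 0.22), with replicate 3 at 0.20 against -0.95 or lower in the other 3. Among the repair and metabolism targets, the polymerase gene Polk fell by 0.54, the thiamine transporter gene Slc19a2 by 0.60 and Dcxr by 0.40. Cdkn1a, Phlda3, Ccng1, Eda2r and Polk passed under every alternative. Without replicate 1, Bbc3, Bmf, Pmaip1, Dcxr, Slc19a2, Btg2, Ei24 and Aen were lost (adjusted p = 0.052 to 0.102), without replicate 2 Bbc3, Bmf, Slc19a2 and Aen (0.0518 to 0.0809), without replicate 3 Pmaip1, Slc19a2 and Aen (0.0512 to 0.0579), and without replicate 4 Bmf (0.0747). The count of death targets was 3 without replicate 1 or with slide as a block and 2 with processed signals, and that of repair and metabolism targets was 1 without replicate 1.

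Chaperones of the endoplasmic reticulum were lower in 6 of 18 members and higher in none (2.45% and 2.19% of all genes), with a median of -0.18. These proteins fold secreted and membrane proteins, and many are switched on by the unfolded protein response through an element made of CCAAT and CCACG with 9 bases between them. Promoters of the pair that passed under every alternative, Hsp90b1 (chr10:86705395-86705694, minus strand) and Pdia6 (chr12:17266339-17266638, plus strand), are shown in the direction of the gene, from the same RefSeq windows, with the fixed letters of the element in capitals.
Hsp90b1: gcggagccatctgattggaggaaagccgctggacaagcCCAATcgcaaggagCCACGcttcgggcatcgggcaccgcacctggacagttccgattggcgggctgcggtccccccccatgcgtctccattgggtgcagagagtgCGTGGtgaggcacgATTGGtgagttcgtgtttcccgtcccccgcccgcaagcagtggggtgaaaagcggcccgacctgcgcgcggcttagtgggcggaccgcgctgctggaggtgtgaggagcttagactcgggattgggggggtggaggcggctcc
Pdia6: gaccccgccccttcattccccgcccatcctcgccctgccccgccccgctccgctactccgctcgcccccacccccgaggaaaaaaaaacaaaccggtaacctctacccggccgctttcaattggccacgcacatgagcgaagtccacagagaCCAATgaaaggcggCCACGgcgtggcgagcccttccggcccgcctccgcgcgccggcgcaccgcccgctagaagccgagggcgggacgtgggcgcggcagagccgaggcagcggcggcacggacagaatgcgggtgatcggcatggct
The element was found on either strand in 37 of 27025 genes (0.137%), in 7 of 16 chaperone genes with an entry (43.8%) and in 4 of the 6 that fell (Creld2, Hsp90b1, Hspa5 and Pdia6). This too is a match of letters and not a measured site.

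Hsp90b1, the reticulum's HSP90 (GRP94), had ratios of -1.06, -0.95, -0.92 and -0.74 and -0.22 on the swapped array (fit -0.59, SE 0.09, adjusted p = 0.0082). The swapped pool lay far above the single samples. Pdia6, a disulfide isomerase, had ratios of -0.74, -0.78, -0.84 and -0.47 and -0.29 on the swapped array (fit -0.49, SE 0.08, adjusted p = 0.0095). Pdia4 fell by 0.43, the HSP70 chaperone gene Hspa5 (BiP) by 0.42, Sdf2l1 by 0.33 and Creld2 by 0.32. The transcription factor gene Xbp1 missed the threshold (-0.64, adjusted p = 0.0596), as did Calr (-0.23, adjusted p = 0.2) and Canx (-0.18, adjusted p = 0.148). The count was 2 without replicate 1, 4 without replicate 2 or 3, 2 with median centring or slide as a block, 3 with the Cdk6-/- arrays alone and 10 with single arrays and no dye term, where the median was -0.36. Without replicate 1 Creld2, Sdf2l1, Hspa5 and Pdia4 were lost (adjusted p = 0.0506 to 0.122).

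Among neutrophil granule genes, S100a8 and S100a9 stood far below wild type and most others were dim. Of 16 genes of that list 9 were tested, 6 of which were above background in fewer than 3 of the 4 Cdk6-/- samples. These passed the filter on dim probes through wild type or Cdk6-K43M, and entry that way favours genes that are lower in Cdk6-/-. S100a8, S100a9, Lcn2, Ngp, Camp and Mpo passed as lower. Lcn2, the iron-sequestering lipocalin, had ratios of -0.21, -0.61, -0.36 and -0.62 and -0.51 on the swapped array (fit -0.47, SE 0.08, adjusted p = 0.012). Ngp, a granule protein, was at least 1.26-fold lower (adjusted p = 0.036). Camp, the cathelicidin, and Mpo, myeloperoxidase, were in no Cdk6-/- sample above background, and their bounds allow no fold. Elane, neutrophil elastase, was above background everywhere and did not pass (-0.08, adjusted p = 0.434). The summed level of the 6 neutrophil markers tested, of 7, was 705 to 768 intensity units in the Cdk6-/- samples and 2958 to 3257 in the wild-type channel. S100a9 and S100a8 were the brightest in wild type (10.73 and 9.41, log2, with Elane next at 8.61). The difference in the sum thus mostly follows S100a9 and S100a8. Of the 7 markers 5 were never above background in Cdk6-/-. Camp, Mpo and Ngp were lost without replicate 1 (adjusted p = 0.0775 to 0.121) or 2 (0.0556 to 0.1), and Mpo and Ngp without replicate 3 (0.0649 and 0.0663) or 4 (0.0621 and 0.074).

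Monocyte and macrophage genes had a lower median, but few of them passed. Of 24 genes 17 were tested, with a median of -1.08 against 0.00 over all genes, and 16 had a negative fit. The list median was -1.35, -0.58, -0.85 and -1.39 in replicates 1 to 4 and -1.17 on the swapped array. Replicate 2 was the highest sample in 12 of the 17, replicate 1 the lowest in 7 and replicate 4 in 8. Cd5l, C1qc, a chain of complement C1q (-1.08, SE 0.25, adjusted p = 0.0406), and Mrc1, the mannose receptor (-0.93, SE 0.19, adjusted p = 0.029), fell. Lgals3, galectin 3, with ratios of -2.69, -0.87, -1.96 and -2.84, gave a fit of -1.98 that did not pass (adjusted p = 0.0574). The same holds for Ms4a7 (-1.73, adjusted p = 0.0738), Adgre1, the F4/80 antigen (-1.48, adjusted p = 0.135), Lyz2 (-1.17, adjusted p = 0.153) and Csf1r (-0.72, adjusted p = 0.365). Itgam, CD11b, was slightly above wild type on all 5 arrays (0.16, adjusted p = 0.39). The count of 3 fell to 0 without replicate 1 or 4, with processed signals or with slide as a block, and was 2 without replicate 3, 9 with the Cdk6-/- arrays alone and 6 without Cdk6-K43M replicate 4. The median was -0.59 with no filter on dim probes.

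**Figure D2:**
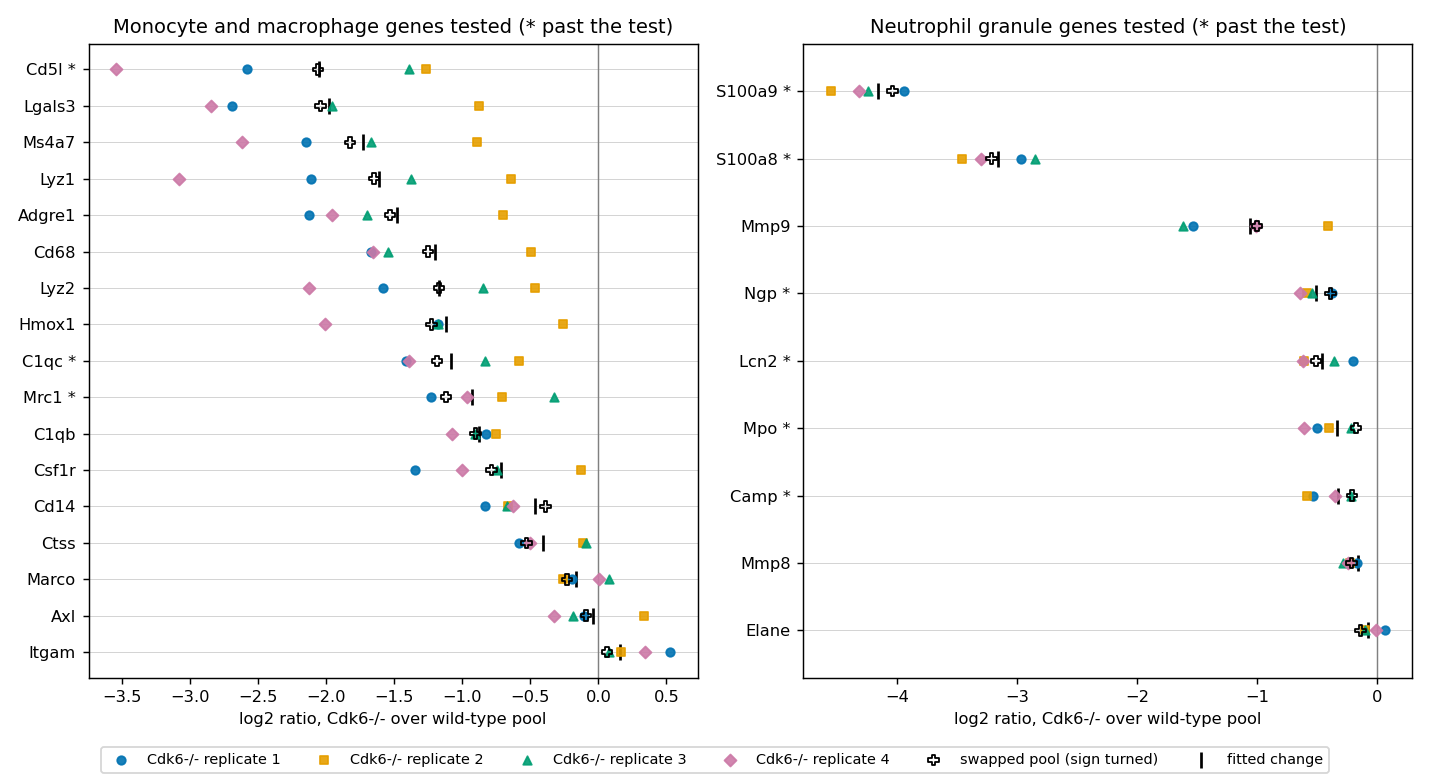
Log2 ratio of Cdk6-/- over the wild-type pool (horizontal axis) for the 17 monocyte and macrophage genes (left) and 9 neutrophil granule genes (right) tested; coloured points are samples, open crosses the swapped pool, ticks the fitted change, and asterisks mark genes past the test. Replicate 2 is the point nearest to wild type in most genes on the left (Lgals3 -0.87, Cd68 -0.50), while S100a9 and S100a8 stand far from the other granule genes on the right; S100a8, Ngp, Mpo and Camp were not above background in Cdk6-/-, so their points are not measured folds.

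B-lineage genes changed little as groups, with a few single changes. Of 16 B-lineage transcription factor genes Bcl11a rose (0.39, SE 0.09, adjusted p = 0.0442) and Irf4, a factor of later B-cell stages, fell (-0.91, SE 0.16, adjusted p = 0.0151). Irf4 had ratios of -0.99, -1.14, -0.53 and -1.14 and -0.89 on the swapped array, all below wild type. Of 11 genes of the pre-B cell receptor and its signalling, Igll1, the surrogate light chain lambda 5, rose (0.38, SE 0.07, adjusted p = 0.0184) and the kinase gene Lyn fell (-0.58, SE 0.13, adjusted p = 0.0351). Of 16 surface antigen genes Spn (CD43) rose by 0.22 and Ly6d fell by 1.31 (SE 0.28, adjusted p = 0.0311). Ly6d ranged from -2.10 in replicate 4 to -0.32 in replicate 3. None of 10 V(D)J recombination genes passed, with Dntt, the terminal transferase, nearest (0.70, adjusted p = 0.0622). Cd74, the invariant chain of MHC class II, had ratios of -1.92, -1.79, -1.21 and -1.17 and -1.17 on the swapped array (fit -1.32, SE 0.27, adjusted p = 0.0243) and was the only one of 13 class II genes to pass.

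Of 9 T and NK cell genes tested, Thy1 and Lck, a kinase of T-cell receptor signalling (0.54, SE 0.12, adjusted p = 0.0311), rose and the adhesion receptor gene Cd2 fell (-1.19, SE 0.28, adjusted p = 0.0419). The T-cell receptor genes Cd3e (-0.14) and Cd3d (-0.02) did not pass and Cd3g was below background everywhere. The summed level of the 7 T and NK markers tested, of 9, was 11249 to 17852 intensity units in the Cdk6-/- samples and 17942 to 19900 in the wild-type channel. Cd2 and Lck were by far the brightest in wild type (13.65 and 12.21, log2, with Thy1 next at 8.69), so the sum mostly follows these 2 genes. The median change of the 7 markers tested was -0.02, and the sum is no measure of T or NK cell content. Flt3, a cytokine receptor of early progenitors, fell by 0.54 (SE 0.13, adjusted p = 0.045) and was the only one of 7 stem and progenitor genes to pass. It was also the only one of 5 genes on which CDK6 is known to act as a transcriptional regulator, the others being Cdkn2a (-0.66, adjusted p = 0.0961), Egr1 (-0.33, adjusted p = 0.214), Vegfa (-0.27, adjusted p = 0.158) and Pim1 (-0.07, adjusted p = 0.755). Without replicate 1, Spn, Ly6d, Bcl11a, Flt3, Cd74, Igll1, Lyn, Lck and Cd2 were lost (adjusted p = 0.0563 to 0.104), and without replicate 2 all of these but Igll1 (0.0546 to 0.0999). Without replicate 4 the same held for Spn, Ly6d, Bcl11a, Flt3, Lyn, Lck and Cd2 (0.0532 to 0.0859), without replicate 3 for Spn and Flt3 (0.076 and 0.0687), and Irf4 was lost with slide as a block (0.0586) and with processed signals (0.0519).

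Interferon response genes differed widely between the 4 Cdk6-/- samples. None of the 24 tested passed in either direction, and the lowest adjusted p was 0.256. The list median was 0.11, -0.06, -0.63 and 1.04 in replicates 1 to 4 and 0.33 on the swapped array. Replicate 4 was the highest in 24 of 24 genes and replicate 3 the lowest in 22. Isg15, a ubiquitin-like modifier, ran from -1.52 in replicate 3 to 1.51 in replicate 4, and Irf7, the factor that amplifies the response, from -1.19 to 1.64 in the same samples. Oas1a, a sensor of double-stranded RNA, lay at 2.11 in replicate 4 and at -0.36 in replicate 3.

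MHC class I genes, whose products show peptides to cytotoxic T cells, had positive list medians in all samples. All 11 members had a positive fit (median 0.31), and 3 rose, against 2.19% of all genes higher. Tap2, a subunit of the peptide transporter, had ratios of 0.49, 0.74, 0.24 and 0.14 and 0.70 on the swapped array (fit 0.59, SE 0.11, adjusted p = 0.0209). H2-K1, a classical class I heavy chain, had ratios of 0.20, -0.01, 0.22 and 0.37 and 0.66 on the swapped array (fit 0.43, SE 0.08, adjusted p = 0.0153), so that the pool lay above every single sample. Psmb8, an immunoproteasome subunit, rose by 0.31 (SE 0.06, adjusted p = 0.0166) with replicate 3 at 0.0064. With single arrays and no dye term H2-K1 and Psmb8 were lost (adjusted p = 0.127 and 0.122), without replicate 1 Tap2 and Psmb8 (0.0601 and 0.0514), and so with the Cdk6-/- arrays alone (0.0534 and 0.0519).

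The 10 genes with the widest range over the 4 samples, among those above background throughout, were Galnt14, Tenm4, Iigp1, Ifi27, Akr1c13, Trpc4, Ifi27l2a, Insl6, Nmral1 and Vill. In several of them 1 sample differed from the other 3. Vill, a villin-like actin regulator, had ratios of 0.90, -2.85, -2.90 and -2.94 and -0.64 on the swapped array. Insl6, an insulin-like peptide, lay at -3.67 in replicate 3 and between 0.15 and 0.30 in the others. Nmral1 lay at -4.15 in replicate 4 and between -1.01 and -0.09 in the others. Trpc4, a cation channel, was at 1.86 in replicate 4 and between -1.96 and -1.29 in the others. Galnt14, a glycosyltransferase, had 2 higher samples (3.86 and 2.41 in replicates 2 and 3) and 2 near or below wild type (-0.11 and -0.75). None of the 10 passed the test, except Nmral1 without replicate 4 (adjusted p = 0.0449).

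**Figure D3:**
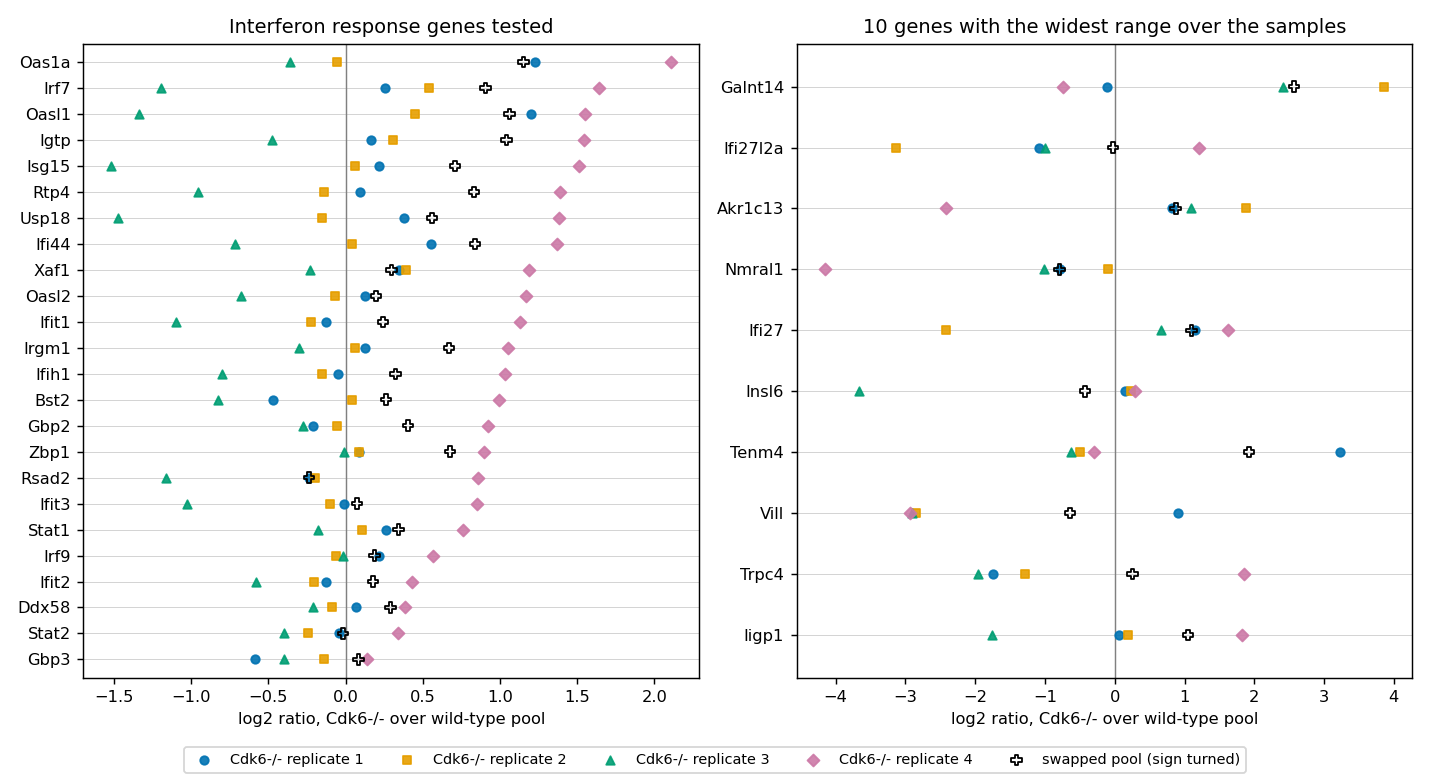
Log2 ratio of Cdk6-/- over the wild-type pool (horizontal axis) in each sample and in the swapped pool for the 24 interferon response genes tested (left) and the 10 genes with the widest range over the samples (right). On the left replicate 4 (list median 1.04) is the rightmost sample in every gene and replicate 3 (list median -0.63) the leftmost in 22; on the right Vill, Insl6 and Tenm4 each have 1 sample apart from the other 3.

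Other groups held single changes. Ccr7, the receptor that guides lymphocytes to lymph nodes, had ratios of -1.51, -1.21, -0.65 and -1.29 and -0.92 on the swapped array (fit -1.03, SE 0.16, adjusted p = 0.0088). It was the only one of 16 adhesion and homing genes to pass. Tnf had ratios of -1.05, -0.46, -1.07 and -0.84 and -0.75 on the swapped array (fit -0.80, SE 0.10, adjusted p = 0.0036), and the other 13 NF-kappaB and inflammatory genes tested did not pass. Both passed under every alternative. Of 18 BCR-ABL adaptors and STAT5 targets the feedback inhibitors Cish (-0.37, SE 0.09) and Socs2 (-0.39, SE 0.09) fell. Myc fell by 0.45 (SE 0.10, adjusted p = 0.0339), alone among 20 genes of ribosome biogenesis and MYC, with ratios of -0.59, -0.64, -0.90 and -0.49 and -0.23 on the swapped array. Of 25 Polycomb and histone deacetylase genes Eed and Cbx2 fell by 0.31 and 0.47. Ier5, an immediate early gene, fell by 0.35, Psat1, of serine synthesis, by 0.27 and Cox6c, of cytochrome oxidase, by 0.24, and the hypoxia gene Car9 rose by 0.28. Without replicate 1, Cish, Socs2, Myc, Eed, Cbx2, Ier5, Psat1, Cox6c and Car9 were lost (adjusted p = 0.0515 to 0.1). Without replicate 2 the same held for all of these but Eed and Ier5 (0.0602 to 0.0787), without replicate 3 for Cish, Socs2, Myc, Psat1, Cox6c and Car9 (0.0546 to 0.0716), and without replicate 4 for Cish, Cbx2, Psat1 and Cox6c (0.0508 to 0.0663).

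Some list medians moved with the sample or the dye. Glycolysis and hypoxia genes had list medians of -0.08, 0.49, -0.08 and -0.33 in replicates 1 to 4, with replicate 2 the highest in 13 of 18 genes and replicate 4 the lowest in 12. The 24 cytosolic ribosomal protein genes had medians of 0.20 to 0.22 in the 4 samples and -0.20 on the swapped array, so that the sign followed the dye (fitted median 0.01, none passed).

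**Figure D4:**
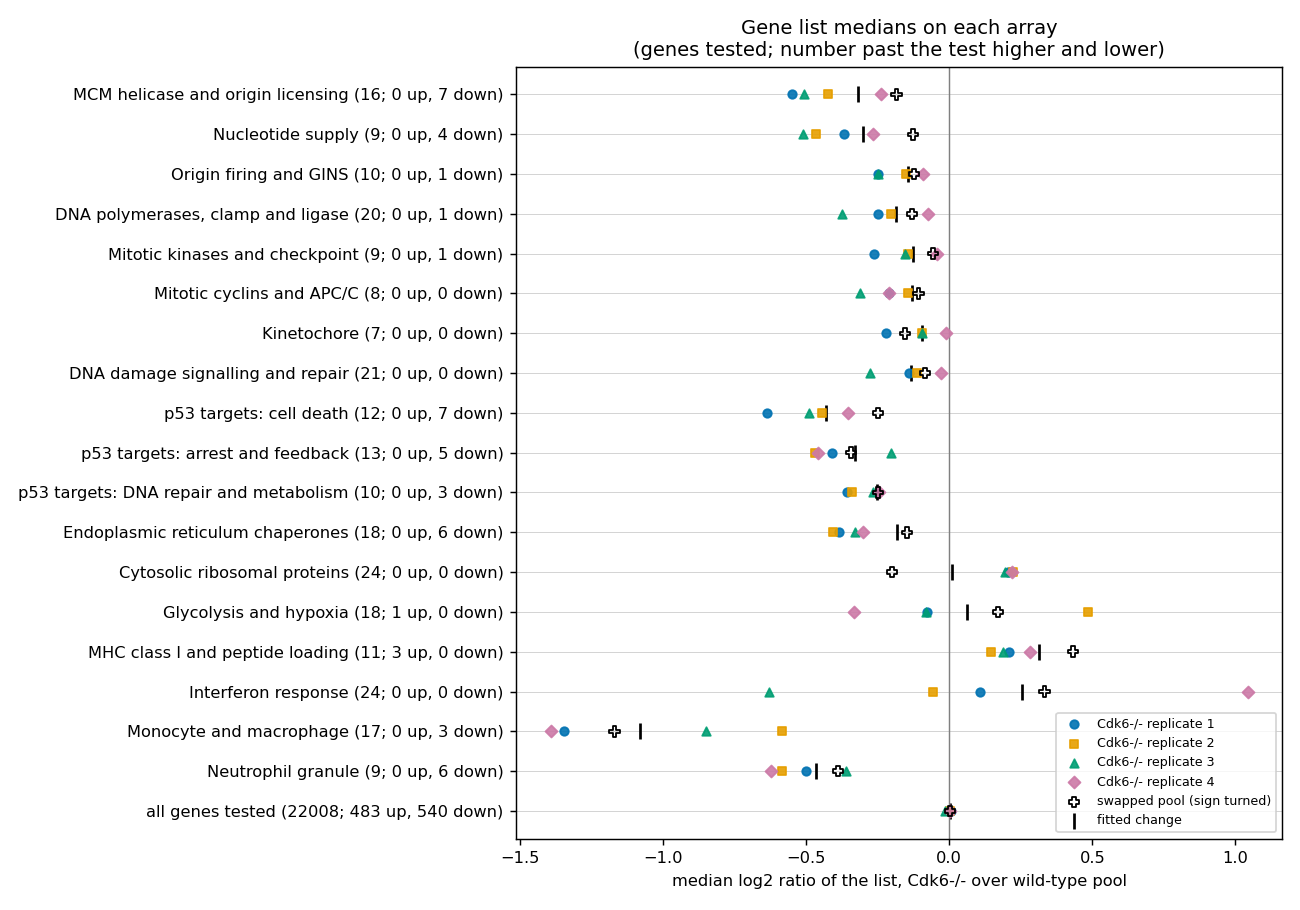
Median log2 ratio of each gene list (horizontal axis) in the 4 samples, in the swapped pool and in the fit, with the number of genes tested and the number past the test in brackets. The licensing, nucleotide, p53 and chaperone lists lie below 0 on all 5 arrays, the interferon list runs from -0.63 to 1.04 across samples, and the ribosomal protein list changes side with the dye.

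A last comparison set Cdk6-/- against Cdk6-K43M on the 8 arrays of single samples, which all carry the mutant in Cy5 and the same pool in Cy3. Both genotypes share the wild-type pool, so their ratios to it are given side by side only. Of 22008 genes 113 differed (0.513%), 55 higher in Cdk6-/- (0.25%) and 58 lower (0.264%). Of these, 33 also passed against wild type, and the 11 of them with a gene symbol other than a clone or predicted gene name are described here. Since these genes were picked by the difference between the same samples, a lack of overlap between the groups is no further support. In Cdk6-/-, Uchl1 fell as given above, while the Cdk6-K43M samples stood at -1.29, 0.06, -0.79 and -0.33. The groups did not overlap, and the difference was -2.35 (SE 0.28, adjusted p = 0.0103). H2-Q5, a class I gene of the Q region, had ratios of 1.33, 0.84, 1.55 and 1.11 in Cdk6-/- and 0.09, -0.51, -0.43 and -0.26 in Cdk6-K43M (difference 1.49, SE 0.18, adjusted p = 0.0103). Pisd-ps3, a pseudogene of a phospholipid decarboxylase whose probe may also read related copies, had ratios of 1.22, 1.40, 0.94 and 1.06 against -0.06, 0.09, -0.11 and -0.47 (difference 1.29, SE 0.14, adjusted p = 0.0065), and its other probe gave 0.19 against wild type. In both genes every Cdk6-/- sample lay above every Cdk6-K43M sample.

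Scn4b, a sodium channel subunit, was above wild type in both genotypes but less so in Cdk6-/- (0.62, 0.76, 0.97 and 0.53 against 1.65, 1.73, 1.99 and 2.07, difference -1.14, SE 0.13, adjusted p = 0.008). Syde2 was below wild type in Cdk6-/- (-0.51, -0.88, -0.82 and -0.65) and near it in Cdk6-K43M (0.04, 0.08, -0.01 and 0.16, difference -0.78, SE 0.09, adjusted p = 0.0112). Tox4, of the HMG box family, lay on opposite sides of wild type (0.29, 0.54, 0.60 and 0.67 against -0.18, -0.33, -0.35 and -0.21, difference 0.79, SE 0.10, adjusted p = 0.0111), but its other probe gave -0.07 in Cdk6-/-. Casz1, a zinc finger factor, and Tmem229b were less far below wild type in Cdk6-/- (differences 0.73 and 0.52, adjusted p = 0.0375 and 0.0429). Sh3bp1 was less far above it (-0.50, adjusted p = 0.0432), and Zfp383 and Nme6 were lower (-0.47 and -0.64, adjusted p = 0.0491 and 0.0362). The Cdk6-/- samples overlapped with those of Cdk6-K43M in none of these 8 genes, which were picked by that difference. The last 5 no longer differed past the threshold when any 1 of the 8 samples was left out (adjusted p = 0.0504 to 0.166), and H2-Q5 and Uchl1 when Cdk6-/- replicate 1 was (0.0521 and 0.0512). Tox4 and the last 5 were also lost with slide as a block (0.0675 to 0.133), and Syde2 and the last 5 with processed signals (0.0727 to 0.198). With replicate number as a block Uchl1, Tox4, Syde2 and the last 5 were lost (0.0641 to 0.152). Casz1 was lost with the mean of the kept probes (difference 0.28, adjusted p = 0.136). Median centring lost Casz1 and Tmem229b (0.0562 and 0.128). Against wild type, Zfp383 was lost without any 1 of the 4 Cdk6-/- replicates (0.0614 to 0.0936) and Nme6 without replicate 1 (0.0528).

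**Figure D5:**
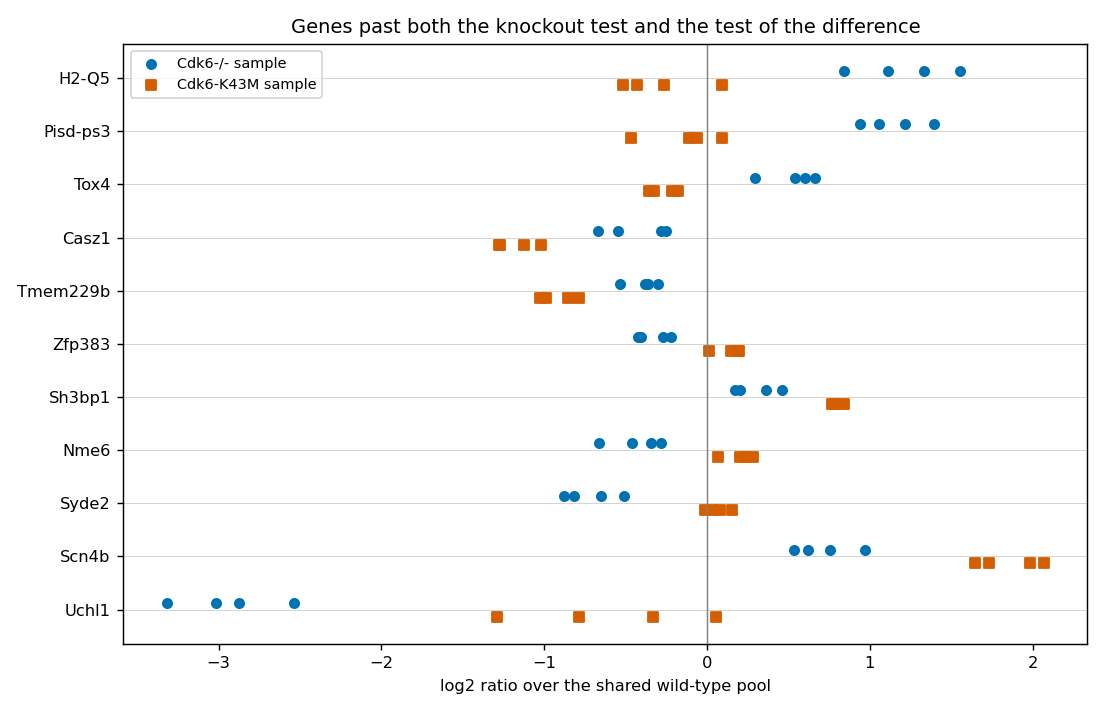
Log2 ratio over the shared wild-type pool (horizontal axis) in the 4 Cdk6-/- samples (circles) and the 4 Cdk6-K43M samples (squares) for the 11 genes past both tests. The genes were picked by the difference between these same samples, so the lack of overlap is no further support. The difference was largest in Uchl1 (-2.35) and in H2-Q5 (1.49).

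Most of the large changes were not shown to differ between the genotypes. The difference passed in 2 of the 30 largest increases (H2-Q5 and Pisd-ps3) and in 1 of the 30 largest decreases (Uchl1). Cdk6-K43M itself passed against the wild-type pool, in the same direction, in 18 of the 30 largest increases and 21 of the 30 largest decreases. Because the pool is shared, these calls are not independent of those in Cdk6-/-. For S100a9 the fitted change was -4.16 in Cdk6-/- and -3.94 in Cdk6-K43M (difference -0.24, adjusted p = 0.61), and for Trf it was -3.39 and -3.45 (difference 0.07, adjusted p = 0.89). For Ehd3 it was 3.05 and 0.62, with a difference that missed the threshold (adjusted p = 0.056), and for Arntl 1.24 and -0.02 (adjusted p = 0.11). Cdkn1a stood at -0.80 and -0.19 (difference -0.62, adjusted p = 0.24) and Myc at -0.45 and 0.20 (difference -0.67, adjusted p = 0.11). The median of the monocyte and macrophage list was -1.08 in Cdk6-/- and 0.06 in Cdk6-K43M, and no gene of it differed past the threshold. Medians of the p53 arrest, cell death and repair lists were -0.33, -0.43 and -0.25 in Cdk6-/- and -0.46, -0.46 and -0.22 in Cdk6-K43M. Those of the licensing, nucleotide and chaperone lists were -0.32, -0.30 and -0.18 against -0.23, -0.21 and -0.37. For neutrophil granule genes they were -0.47 and -0.52. A difference that misses the threshold does not show that the genotypes are alike.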

How the data were processed

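Colony RNA was hybridised to 2-colour Agilent mouse arrays. Per the file headers, the deposited scanner files hold spot intensities that Agilent Feature Extraction (version 11.5.1.1) read from the images. The deposited series table holds log2 intensities of each channel, labelled as loess normalized, and its processing is otherwise not given in the sources used here. It served as an alternative only.

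Median signals were background corrected with limma 3.58.1 (R 4.3.3; normexp, offset 50, median local background) and loess normalized within each array with control spots at weight 0. Spots flagged as non-uniform were set to missing (195 values). Probes were kept where 3 or more of the 4 samples of a genotype, or the wild-type channel of 5 or more of 10 arrays, were flagged well above background (28177 of 56605 probes), and the brightest probe stood for each of 22008 genes. Symbols come from RefSeq (GRCm38.p6) by accession, which named 58.3% of probes and 12997 of the genes, and 9011 genes keep the file's identifier.

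Ratios were turned to mutant over wild type and fitted over all 10 arrays with a term for each genotype and for the dye (limma, eBayes, Benjamini-Hochberg adjustment, threshold 0.05, 7 residual degrees of freedom). A swapped pool entered as the mean of its 4 samples plus technical noise, estimated at 17.0 percent of the variance, and not as a further sample. The wild-type pool counts as 1 control and leaves out its own spread. Cdk6-/- and Cdk6-K43M were compared on the 8 single-sample arrays. A "log2 ratio" of a sample includes its dye effect, and the swapped array includes it with the opposite sign. A gene well above background in no sample of 1 group has only a bound, which sets the mean of the brighter group against the higher, per array, of its own value and the dimmest value among probes above background. The fits were tested on simulated data.

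Named genes are Cdk6, the 30 highest and 30 lowest changes past the threshold with one sign on all 5 arrays, up to 6 members of each list in each direction by p, the genes past both tests, and the 10 widest ranges among genes above background in all 4 samples. 2 genes that this rule names are not reported here. Summed marker levels are sums of normalised channel intensities over the markers tested. Members and gene lists were chosen with earlier results of these data known. Alternatives changed the background correction, the normalization, the signal, the filter, the choice of probe, the treatment of the swapped pools and the technical share, took slide or replicate number as a block, or left out 1 sample. The one without Cdk6-K43M replicate 4 in the test against wild type was chosen after seeing the data. Figures were drawn with Python 3.11.15 and matplotlib 3.10.9.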

Additional observations from a re-analysis of the deposited data

Results flagged for a closer look

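In 204 sets of 4 values (the named genes, the sex-linked genes given among the other observations, and list medians, in the 4 Cdk6-/- samples) a value far from the other 3 was looked for, and 16 sets held one. Chance gives about 1 in 20 for sets not chosen by their spread, but 10 of the genes, Vill, Insl6 and Tenm4 among them, were chosen for a wide range. Replicate 4 stood apart in 8 of the 16. It lay nearer to wild type for Cdt1 (-0.36, others -0.99 to -0.88), Mcm2 (-0.32, others -0.54 to -0.51), Socs2 (-0.0196, others -0.48 to -0.41) and Ehd3 (1.46, others 3.29 to 3.62). It lay lower for Laptm4b (-2.73, others -2.10 to -2.003) and for the list medians of the BCL2 family (-0.36, others -0.16 to -0.13), adhesion and homing (-0.36, others -0.07 to -0.04) and iron handling (-0.30, others -0.15 to -0.13). Replicate 1 stood apart for Crim1 (1.00, others 1.17 to 1.18), Tenm4 (3.22, others -0.62 to -0.29), Vill (0.90, others -2.94 to -2.85) and the median of the V(D)J recombination list (0.24, others -0.02 to 0.01). Replicate 3 stood apart for Insl6 (-3.67, others 0.15 to 0.30), Psmb8 (0.0064, others 0.18 to 0.20) and the Y-linked helicase gene Ddx3y (0.38, others -0.04 to 0.02). Replicate 2 stood apart for the Y-linked demethylase gene Kdm5d (-2.05, others -0.14 to 0.11).

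Of the genes past the tests against wild type and of Cdk6-/- minus Cdk6-K43M, 11 had a gene symbol other than a clone or predicted gene name. The difference was positive for H2-Q5 (1.49), Pisd-ps3 (1.29), Tox4 (0.79), Casz1 (0.73) and Tmem229b (0.52). It was negative for Uchl1 (-2.35), Scn4b (-1.14), Syde2 (-0.78), Nme6 (-0.64), Sh3bp1 (-0.50) and Zfp383 (-0.47).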

How the results depend on the processing

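No named gene past the test changed direction under the alternatives run. Trpc4, which did not pass, went from -0.26 to 0.03 with slide as a block. Against wild type 1023 genes passed. As totals of their own, which need not hold the same genes, processed signals gave 570 (317 higher, 253 lower), median centring 556 (333 and 223), ordinary least squares with the pools as further arrays 1593 (745 and 848), single-sample arrays with no dye term 3292 (1475 and 1817), the 5 Cdk6-/- arrays alone 769 (281 and 488), and slide as a block 374 (167 and 207). Leaving out 1 sample gave 346 to 1089 (145 to 505 higher, 201 to 584 lower). The share higher among genes past the test was 47.2%, but 59.9% with median centring and 36.5% with the Cdk6-/- arrays alone.

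With processed signals, the licensing, monocyte and macrophage, nucleotide and p53 cell death lists had 2, 0, 1 and 2 genes lower. With median centring, chaperones, licensing, monocyte and macrophage, and nucleotide lists had 2, 2, 1 and 1. With single-sample arrays and no dye term, chaperones had 10, licensing 11, monocyte and macrophage 5, p53 repair 6 and p53 arrest 8, and MHC class I had 1 higher. With the Cdk6-/- arrays alone, chaperones had 3, licensing 2, monocyte and macrophage 9 and MHC class I 1. With slide as a block, chaperones had 2, licensing 1, monocyte and macrophage 0, nucleotide 1 and p53 cell death 3. With a technical share of 0.1, monocyte and macrophage had 1 and nucleotide 2. With 1 sample left out, the counts ran from 2 to 6 for chaperones, 2 to 9 for licensing, 1 to 4 for MHC class I, 0 to 6 for monocyte and macrophage, 3 to 6 for neutrophil granules, 1 to 4 for nucleotide supply, 1 to 4 for p53 repair, 4 to 5 for p53 arrest and 3 to 8 for p53 cell death.

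For Cdk6-/- minus Cdk6-K43M (113 genes), processed signals gave 65, slide as a block 33, and leaving out 1 sample 36 to 77. Same-numbered samples of the genotypes correlated in their deviations at 0.084, -0.066, 0.23 and 0.14. Cdk6-/- replicates 1 to 4 correlated best with Cdk6-K43M replicates 2, 4, 3 and 4. These values cannot decide whether the numbers pair the samples, because the labels do not give the donors. A replicate block gave 37. Causes of these shifts were not tested. The signal over background limits dim genes, whose size of change rests on the offset.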

Other observations

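Genes of both sex chromosomes separated some samples. Eif2s3y, a Y-linked subunit of translation factor eIF2, had ratios of 0.08, -5.42, -5.20 and 0.10 in Cdk6-/- replicates 1 to 4 and -1.16 on the swapped array. Its X-linked homologue Eif2s3x had ratios of 0.07, -2.50, -2.44 and -0.05 and -0.62 on the swapped array. Replicates 2 and 3 were thus far below wild type for both genes, and Eif2s3y was above background in only 2 of the 4 samples. Among the Cdk6-K43M samples replicate 2 was low for both (-5.29 and -2.67). The other Y-linked genes did not follow: Ddx3y lay between -0.04 and 0.38 and Uty between 0.00 and 0.11 in the same 4 samples, and Kdm5d was low in replicate 2 only (-2.05). None of these 5 genes passed the test against wild type.

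The share of genes past the test ran from 4.44% on chromosome 11 to 7.99% on chromosome 12 over the autosomes and X among genes with a symbol, of which 780 of 12997 passed in all (6.0%).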
